A study of Homo sapiens with 12 samples.

Results

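The genes described here encode 9 replication-independent histone variants: H2AJ, H2AX, H2AZ1, H2AZ2, MACROH2A1, MACROH2A2, H3-3A, H3-3B and H1-10. They were chosen by name, as the rows whose Ensembl ID maps to these symbols, and all 9 were found among the 63677 gene IDs of the count table. All 9 passed the filter on low counts, with at least 1596 reads in every library. Expression was measured by RNA sequencing of total RNA in 12 libraries of LNCaP, an androgen-responsive human prostate cancer cell line, in 4 groups of 3. The first group overexpressed USP22, and the second expressed 1 shRNA against USP22 (shUSP22-4693). Their controls were cells with a control shRNA for the depletion and cells with the vector pLPLUC for the overexpression. Both shRNA groups had been given 1 ug/mL doxycycline every 48 hours for 5 days, and this treatment is not labelled for the vector control or the overexpressing cells. All 4 groups were LNCaP derivatives kept in hormone proficient media. The depletion rests on 1 shRNA sequence. Nothing in the labels tells separate cultures from repeat preparations of one, and p-values here therefore reflect the spread of these libraries, which may be technical.

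Most histone genes are transcribed only while DNA is copied, and their mRNAs end in a stem-loop in place of a poly(A) tail. Replication-independent variants come from separate genes, most with polyadenylated mRNAs, and their proteins enter chromatin throughout the cell cycle by way of dedicated chaperones. USP22 is the deubiquitinase subunit of the SAGA coactivator complex, and its known substrates include ubiquitinated histones H2A and H2B.

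Libraries held 77607469 to 103690001 reads. USP22 was at 1498, 1406 and 1495 CPM (read counts scaled by library size, with TMM) in overexpressing cells, at 257, 265 and 251 CPM in depleted cells, at 480, 473 and 480 CPM with the control shRNA and at 482, 491 and 565 CPM with the vector. The labels were thus matched by the targeted gene, with a log2 fold change of 1.52 ± 0.06 on overexpression (here and in what follows ± gives the SE of a fitted log2 value, adjusted p = 4.29e-10) and of -0.89 ± 0.06 on depletion (adjusted p = 5.41e-08, both by edgeR's quasi-likelihood test). Each of 9 luminal prostate markers was between 134 and 1510 CPM in every library. Of these, 1 fell on overexpression, 6 fell and 1 rose on depletion, and 6 were higher and 2 lower with the control shRNA than with the vector. Of all tested genes 4.11%, 19.8% and 43.0% passed in these comparisons, in that order, at an adjusted p under 0.05. KLK3, which encodes prostate-specific antigen, fell by 2.13 on the log2 scale on depletion (adjusted p = 1.54e-10, edgeR) and was also the 1 marker that fell on overexpression, by 0.51 (adjusted p = 0.00128). Summed, the luminal markers lay at 4704 to 4859 CPM on overexpression, at 4592 to 5100 CPM on depletion, at 6428 to 6629 CPM with the control shRNA and at 5005 to 5361 CPM with the vector. Of the other lineages, 9 of 12 markers of basal, stromal, immune and endothelial cells stayed at or under 0.473 CPM. The exceptions were KRT14, COL1A1 and VWF, the highest of which, COL1A1, reached 16.4 CPM. PECAM1 had 0 reads in all libraries. Summed, those 12 lay at 17.7 to 18.7 CPM on overexpression, at 28.6 to 31.8 CPM on depletion, at 25.4 to 27.6 CPM with the control shRNA and at 17.02 to 23.4 CPM with the vector, and the part of either marker set in the results was not tested. Replicate 3 of the vector control stood apart from its group, with an SD of 0.587 in log2 CPM from its group mates, against 0.335 to 0.46 for the other 11 libraries. It held the highest vector-control value of H2AJ, H2AX, MACROH2A2, H3-3A, H3-3B and H1-10 and the lowest of H2AZ1 and H2AZ2, so values without it are given where they differ in call.

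The promoters of the members that differed most between groups are shown with the promoter of H4C16, a histone H4 gene whose start lies 3274 bases from that of H2AJ on the opposite strand. Each is the 250 bases before the RefSeq start (GRCh38.p14), 5′ to 3′ on the gene's own strand. Capitals mark CCAAT or its other-strand form ATTGG, the CCAAT box bound by the factor NF-Y, and TTTGAA or its other-strand form TTCAAA, one form of the cell cycle homology region.
H2AJ, chr12:14774155-14774404, plus strand: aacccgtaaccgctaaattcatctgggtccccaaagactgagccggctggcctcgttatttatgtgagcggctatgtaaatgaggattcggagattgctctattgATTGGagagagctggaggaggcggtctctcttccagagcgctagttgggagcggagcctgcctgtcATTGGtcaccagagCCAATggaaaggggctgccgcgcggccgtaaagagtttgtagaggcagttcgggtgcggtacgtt
H4C16, chr12:14771132-14771381, minus strand: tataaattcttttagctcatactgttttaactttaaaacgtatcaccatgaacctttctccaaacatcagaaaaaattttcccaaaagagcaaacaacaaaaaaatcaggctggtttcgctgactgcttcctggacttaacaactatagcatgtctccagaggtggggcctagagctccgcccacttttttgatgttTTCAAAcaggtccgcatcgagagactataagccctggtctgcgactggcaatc
H2AX, chr11:119095466-119095715, minus strand: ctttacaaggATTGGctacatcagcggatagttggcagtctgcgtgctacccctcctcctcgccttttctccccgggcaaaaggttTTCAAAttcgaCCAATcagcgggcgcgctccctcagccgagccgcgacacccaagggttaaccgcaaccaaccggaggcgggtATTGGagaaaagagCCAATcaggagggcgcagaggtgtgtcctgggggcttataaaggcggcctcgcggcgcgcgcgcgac
H2AZ1, chr4:99950276-99950525, minus strand: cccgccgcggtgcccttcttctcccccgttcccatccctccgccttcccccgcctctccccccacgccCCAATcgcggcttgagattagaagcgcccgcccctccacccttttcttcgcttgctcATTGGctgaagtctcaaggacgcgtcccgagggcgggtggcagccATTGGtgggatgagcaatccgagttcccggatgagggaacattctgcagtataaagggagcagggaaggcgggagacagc
The H2AJ window held the CCAAT box 3 times, starting 145, 79 and 65 bases before the gene, and the H2AX window held it 4 times, at 240, 153, 81 and 67 bases. H2AZ1 had 3 matches, at 182, 125 and 80 bases, and H4C16 had no CCAAT match and 1 of the cell cycle homology region, at 53 bases. Over 13 windows, 7 of the 9 members had at least 1 CCAAT match on either strand, and MACROH2A2 and H1-10 had none. Of all 35116 windows of this length, 32% held one and 9.53% held at least 2. These are shares of windows, whereas a member counted if any of its windows matched, and H3-3A and MACROH2A1 had several. The cell cycle homology region, searched as TTTGAA and TTCGAA on both strands, was found in H2AX and H2AZ2 and in 14.3% of all windows. No member's window held the E2F forms TTTCGCGC, TTTGGCGC, TTTCCCGC or TTTGCCGC on either strand, against 2.79% of all windows. These motifs were chosen after expression values had been seen, and a match is only a run of letters.

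Among the 9 variants, H2AJ was lower on overexpression of USP22 than with the vector. H2AX, MACROH2A2 and H3-3A were higher on depletion than with the control shRNA. H2AJ was high in the vector control alone, and every member had its lowest group mean with the control shRNA. The control shRNA libraries overlapped those of depleted cells for H2AJ, H2AZ1, H2AZ2 and H3-3B, and those of the vector control for H3-3A. On overexpression 1 of 9 members passed the threshold of 0.05 on the adjusted p and it was lower, where 4.11% of the 26076 tested genes passed, 1.51% higher and 2.60% lower. On depletion 3 of 9 passed, all higher, where 19.8% of tested genes passed, 9.40% higher and 10.4% lower. The median log2 fold change of the members was -0.16 on overexpression and 0.14 on depletion, and the medians over all tested genes were -0.0085 and 2e-04. On overexpression 6 members had an unadjusted p under 0.05, and on depletion 4 had one. For these unadjusted counts, and those of the lists below, the share of all tested genes was not taken. Without replicate 3 of the vector control 2 members passed on overexpression and 5 on depletion, where 1842 and 8359 genes passed in all.

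The controls themselves differed. Between the control shRNA and the vector control, 8 of 9 members were lower and none higher, where 43.0% of tested genes passed, 21.7% higher and 21.3% lower. The members' median was -0.52, against 0.02 over all tested genes. In depleted cells against the vector control 7 of 9 passed, H3-3A higher and 6 lower, where 34.8% of tested genes passed, 16.2% higher and 18.6% lower. These comparisons share libraries with those of overexpression and depletion, and in them construct and doxycycline cannot be told apart. In the test of the overexpression effect minus the depletion effect, 4 of 9 passed, all negative, where 10.9% of tested genes passed, 4.91% positive and 5.98% negative. Members whose libraries did not overlap between groups numbered 6 on overexpression and 5 on depletion, where 22.4% and 41.8% of all tested genes did not overlap.

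**Figure D1:**
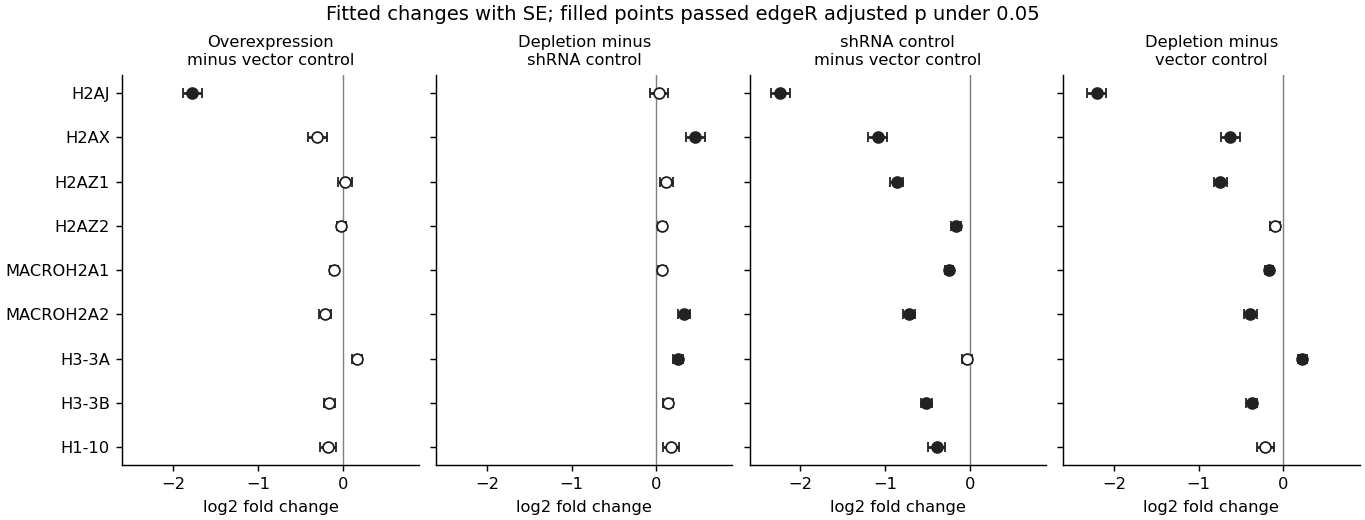
Fitted log2 fold change with its SE (horizontal axes) of the 9 members in 4 comparisons. Filled points passed the threshold of 0.05 on edgeR's adjusted p: H2AJ alone on overexpression, H2AX, MACROH2A2 and H3-3A on depletion, and 8 of 9 members, all lower, between the control shRNA and the vector.

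H2AJ was the member that differed most with USP22 overexpression. It encodes H2A.J, an H2A variant known to accumulate in senescent fibroblasts. Its level was 27.6, 27.4 and 29.4 CPM in overexpressing cells, against 85.4, 84.5 and 118.6 CPM in the vector control. All overexpressing libraries lay under all vector libraries, and the gap between the groups was larger than the spread within either. The fitted log2 fold change was -1.77 ± 0.11 (SE, adjusted p = 5.55e-08, edgeR). Without replicate 3 of the vector control it was -1.60 (adjusted p = 2.95e-14), and it passed in all 20 alternatives. Depleted cells had 20.4, 23.1 and 19.2 CPM, against 20.3, 19.6 and 21.3 CPM with the control shRNA. These groups overlapped, and their log2 difference was 0.04 ± 0.11 (adjusted p = 0.876). H2AJ thus lay between 19.2 and 29.4 CPM in 3 groups and was high in the vector control alone. The control shRNA cells themselves differed from the vector control by -2.24 ± 0.11 on the log2 scale (adjusted p = 3.92e-10). The effect of overexpression minus that of depletion was -1.81 ± 0.16 (adjusted p = 2.71e-06).

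**Figure D2:**
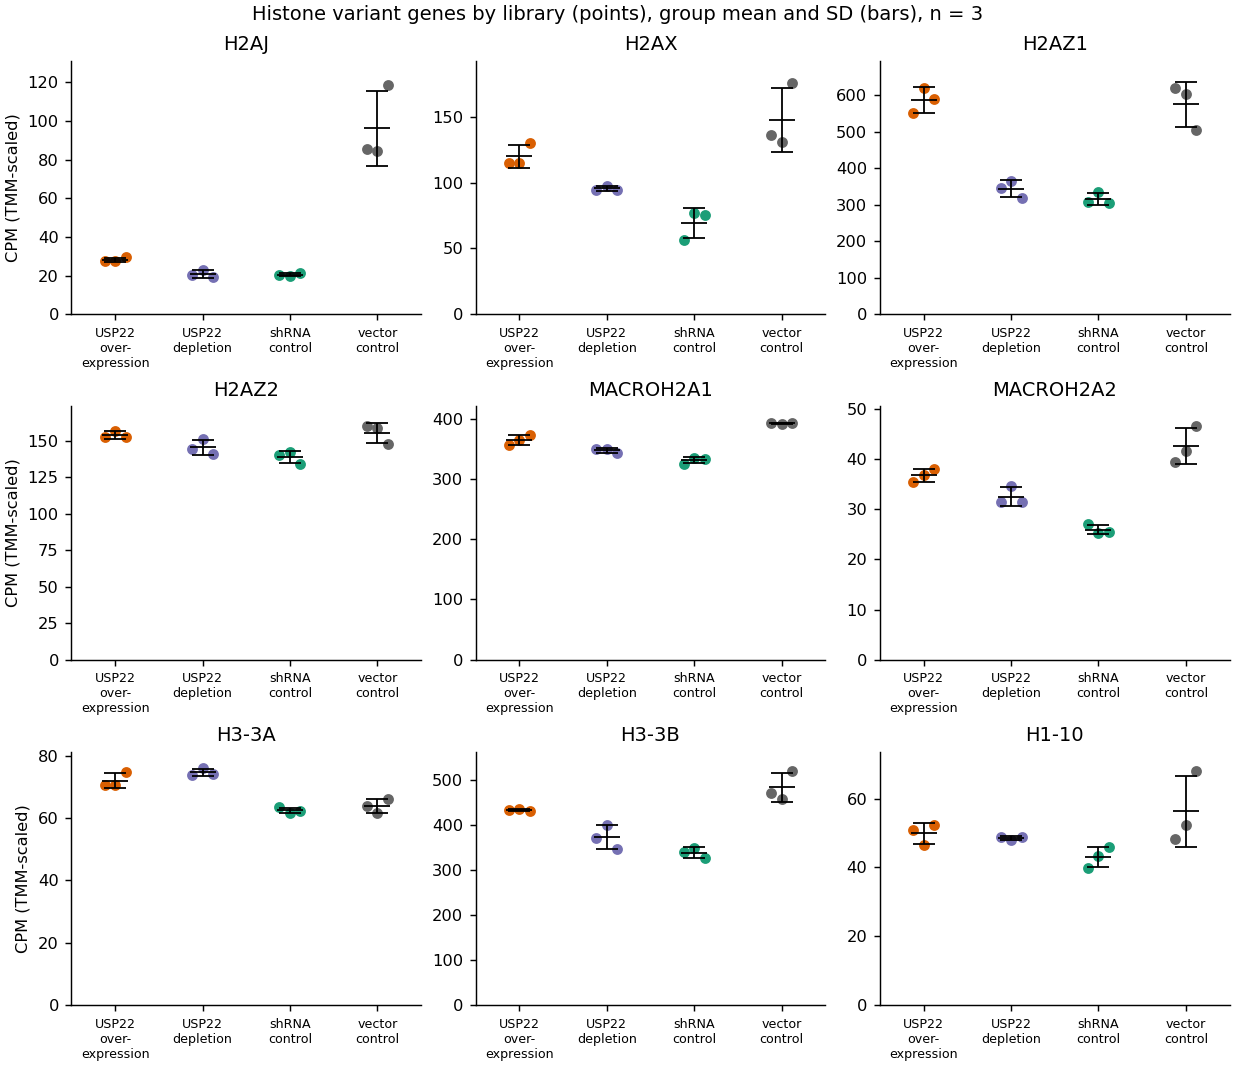
Level of each of the 9 histone variant genes in CPM (vertical axes, from 0) in every library (points) of the 4 groups, with the group mean and SD (bars, n = 3). H2AJ is between 19.2 and 29.4 CPM in every group but the vector control, where the mean is 96.2 CPM, while H3-3A has its highest means in the USP22 overexpression and depletion groups.

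Genes on either side of H2AJ were read in the same libraries, by a rule set after the H2AJ values were known (3 protein-coding genes each way in RefSeq order). H4C16, a replication-dependent H4 gene, had 14.8, 14.8 and 14.1 CPM in overexpressing cells, against 48.3, 37.0 and 56.6 CPM in the vector control, and the groups did not overlap. Its log2 fold change on overexpression was -1.70 ± 0.12 (adjusted p = 1.59e-07). It was also lower in the control shRNA cells, at 9.95, 11.6 and 10.8 CPM, than in the vector control, at -2.13 on the log2 scale (adjusted p = 1.18e-09). Unlike H2AJ, whose depletion values overlapped, H4C16 rose on depletion, to 15.1, 15.2 and 13.9 CPM, by 0.45 ± 0.12 over the control shRNA (adjusted p = 0.0118), and the difference between these genes in that response was not tested. WBP11, a splicing factor gene on the other side of H2AJ, had 71.9, 72.5 and 74.5 CPM on overexpression, against 82.6, 78.3 and 79.2 CPM with the vector. Its log2 fold change was -0.13 ± 0.06 (adjusted p = 0.207), with groups that did not overlap. WBP11 was lower with the control shRNA than with the vector, at -0.50 ± 0.06 (adjusted p = 1.78e-06, edgeR). On depletion it rose by 0.23 ± 0.06 (adjusted p = 0.00775, edgeR). Of the 4 tested neighbours of H2AJ, H4C16 was the only one that passed on overexpression. Between the control shRNA and the vector 3 of the 4 were lower and 0 higher, where 21.3% of all tested genes were lower.

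**Figure D3:**
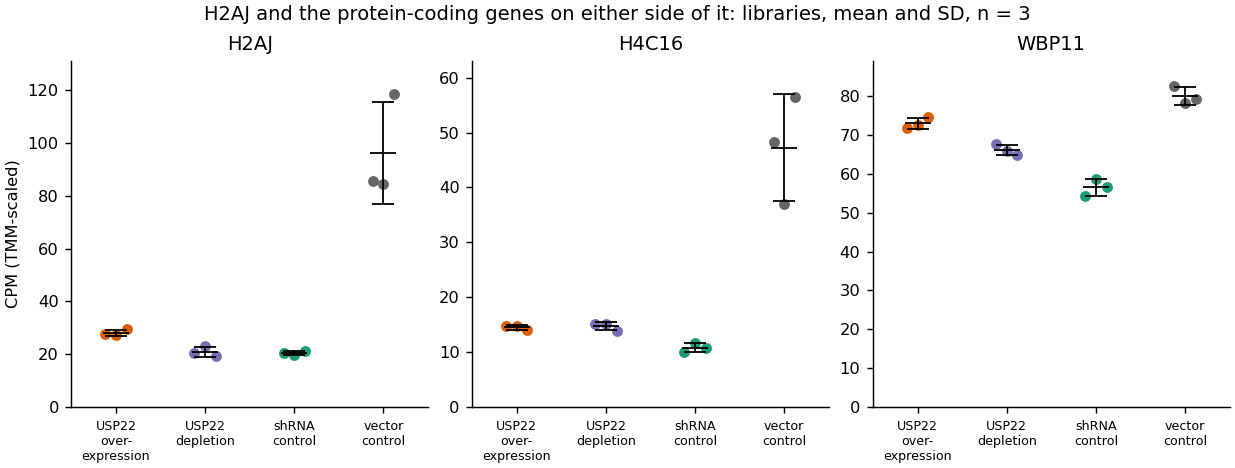
H2AJ, H4C16 and WBP11 in CPM (vertical axes, from 0) in every library (points) with the group mean and SD (bars, n = 3). H2AJ and H4C16 are high in the vector control alone, while WBP11 is between 71.9 and 74.5 CPM in overexpressing cells and between 78.3 and 82.6 CPM in the vector control. With the control shRNA WBP11 is between 54.3 and 58.7 CPM.

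H2AX rose with USP22 depletion. H2A.X is phosphorylated around DNA double-strand breaks, and its gene is known to give both stem-loop and polyadenylated mRNAs. Depleted cells had 94.3, 97.7 and 94.6 CPM, against 56.1, 76.8 and 75.3 CPM in the control shRNA cells. Each depleted library was above each control library, and the log2 fold change was 0.46 ± 0.12 (SE, adjusted p = 0.00929, edgeR). Overexpressing cells had 115, 114.9 and 129.9 CPM, against 135.8, 131.2 and 175.5 CPM in the vector control. The groups met without overlap, and the log2 difference of -0.30 ± 0.12 did not pass (adjusted p = 0.173). Without replicate 3 of the vector control that difference was -0.16. The control shRNA cells were lower than the vector control, at -1.09 ± 0.12 (adjusted p = 1.28e-06). Depleted cells were also lower than the vector control, at -0.63 ± 0.12 (adjusted p = 0.000479, edgeR). The effects of overexpression and depletion differed by -0.76 ± 0.16 (adjusted p = 0.00646).

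Of the genes that phosphorylate H2AX or read that mark, 4 of 11 rose on depletion and none fell, with a median log2 fold change of 0.08. Of all tested genes 19.8% passed on depletion. PRKDC, the catalytic subunit of DNA-dependent protein kinase, rose by 0.28 ± 0.05 on depletion (adjusted p = 0.000684). On overexpression PRKDC was the 1 gene of this list that passed, at -0.20 ± 0.05 (adjusted p = 0.0336), a call kept in 7 of 20 alternatives. In the control shRNA cells against the vector control, 2 of the 11 were higher and 7 lower, where 43.0% of all tested genes passed. ATM, a kinase that acts on H2A.X at breaks, was higher by 0.56 ± 0.08 (adjusted p = 1.58e-05) in that comparison. MRE11, the nuclease that senses breaks, was lower, at -0.50 ± 0.06 (adjusted p = 4.51e-06), and MDC1, which binds phosphorylated H2A.X, at -0.37 ± 0.08 (adjusted p = 0.000722).

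The H2A.Z genes, H2AZ1 and H2AZ2, did not pass the threshold on either overexpression or depletion of USP22. H2A.Z sits in the nucleosomes next to active start sites. H2AZ1 was at 551, 621 and 590 CPM in overexpressing cells, against 619, 604 and 506 CPM in the vector control, and the groups overlapped (log2 difference 0.03 ± 0.08, adjusted p = 0.893). It was at 346, 366 and 319 CPM in depleted cells, against 307, 336 and 306 CPM with the control shRNA, which also overlapped (0.12 ± 0.08, adjusted p = 0.336). The 2 shRNA groups lay far under the other 2 groups. The control shRNA cells differed from the vector control by -0.87 ± 0.08 (adjusted p = 2.32e-07), and the depleted cells by -0.75 ± 0.08 (adjusted p = 2.21e-06). H2AZ2 varied least of all members, from a group mean of 139 CPM with the control shRNA to 155.6 CPM with the vector. Its highest group mean was 1.12 times its lowest, against 1.86 times for H2AZ1. H2AZ2 was lower in the control shRNA cells than in the vector control, at -0.16 ± 0.06 (adjusted p = 0.0251), a call kept in 13 of 20 alternatives. In depleted cells against the vector control it was at -0.10 ± 0.06 (adjusted p = 0.197), and without replicate 3 of the vector control at -0.13 (adjusted p = 0.0201).

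As a share of the reads of both genes, H2AZ1 took 70.2% ± 0.76 in depleted cells and 69.5% ± 0.81 with the control shRNA (SD, n = 3 each, difference 0.77 percentage points, exact two-sided permutation p = 0.3). It took 79.2% ± 0.78 on overexpression and 78.7% ± 1.1 with the vector (difference 0.53 percentage points, exact permutation p = 0.5). The control shRNA cells differed from the vector control by -9.2 percentage points (exact permutation p = 0.1). With 3 against 3 libraries, 0.1 is the smallest p this test allows.

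Of 23 subunits and chaperones that place or remove H2A.Z, 6 rose and 1 fell on depletion, with a median of 0.04, where 19.8% of all tested genes passed. RUVBL1 rose by 0.42 ± 0.07 (adjusted p = 0.000355) and ACTL6A by 0.32 ± 0.06 (adjusted p = 0.000856), both shared subunits of several remodelling and acetyltransferase complexes. YEATS4, a reader subunit of such complexes, rose by 0.45 ± 0.09 (adjusted p = 0.00273). The gene that fell was MEAF6, an acetyltransferase complex subunit, at -0.47 ± 0.07 (adjusted p = 8.13e-05). None of the 23 passed on overexpression, although 11 had an unadjusted p under 0.05 (edgeR). DESeq2 called 1 higher and 1 lower there, and limma 0. In the control shRNA cells against the vector control 2 of the 23 were higher and 7 lower, where 43.0% of all tested genes passed. INO80, the ATPase of a complex that removes H2A.Z, was among those lower, at -0.32 ± 0.06 (adjusted p = 0.000287).

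MACROH2A2 passed on depletion and its paralog MACROH2A1 did not, and the difference between their responses was tested only as a share of reads. MacroH2A proteins carry a large macro domain beside the histone fold and are known from repressed chromatin such as the inactive X chromosome. MACROH2A2 had 31.4, 34.7 and 31.6 CPM in depleted cells, against 27.1, 25.4 and 25.4 CPM with the control shRNA, with no overlap (log2 fold change 0.33 ± 0.07, adjusted p = 0.00388). It had 35.5, 36.9 and 38.1 CPM on overexpression, against 39.5, 41.7 and 46.6 CPM with the vector, again with no overlap, but the difference of -0.21 ± 0.07 did not pass (adjusted p = 0.117). The effects of overexpression and depletion differed by -0.54 ± 0.10 (adjusted p = 0.00261). MACROH2A1 lay between 325.7 and 393.5 CPM in all libraries. Its log2 difference was 0.07 ± 0.05 on depletion (adjusted p = 0.359) and -0.11 ± 0.05 on overexpression (adjusted p = 0.245), although neither pair of groups overlapped. The difference of these effects was -0.18 ± 0.07 (adjusted p = 0.114), and without replicate 3 of the vector control it passed at -0.18 (adjusted p = 0.0266). The control shRNA cells were lower than the vector control for both, at -0.72 ± 0.07 for MACROH2A2 (adjusted p = 6.55e-07) and -0.24 ± 0.05 for MACROH2A1 (adjusted p = 0.000526). Depleted cells were also lower than the vector control for MACROH2A2, at -0.39 ± 0.07 (adjusted p = 0.00048, edgeR), and for MACROH2A1, at -0.18 ± 0.05 (adjusted p = 0.00876). MACROH2A1 took 91.4% ± 0.42 of the reads of the pair in depleted cells and 92.7% ± 0.36 with the control shRNA (SD, n = 3 each, exact permutation p = 0.1), a difference of -1.29 percentage points. On overexpression the share was 90.8% ± 0.11, against 90.2% ± 0.75 with the vector (exact permutation p = 0.3).

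H3-3A rose on depletion, and its libraries lay above those of the control in both USP22 groups. H3-3A and H3-3B encode the same protein, histone H3.3, from separate genes. H3-3A had 74.0, 76.0 and 74.2 CPM in depleted cells, against 63.5, 61.7 and 62.3 CPM with the control shRNA. The groups did not overlap, and it rose by 0.26 ± 0.05 (adjusted p = 0.00293). It had 70.6, 70.5 and 74.7 CPM on overexpression, against 64.0, 61.6 and 66.1 CPM with the vector, also with no overlap. That difference of 0.17 ± 0.05 did not pass (adjusted p = 0.0968), and without replicate 3 of the vector control it was 0.19 and passed (adjusted p = 0.00955). Its responses to overexpression and depletion differed by -0.09 ± 0.08 (adjusted p = 0.545). It was also the member that did not differ beyond the threshold between the control shRNA and the vector (-0.03 ± 0.05, adjusted p = 0.676), and the member that was higher in depleted cells than in the vector control (0.23 ± 0.05, adjusted p = 0.00402).

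H3-3A reads are uncertain because the table holds 8 rows for H3.3 pseudogenes, which sum to 30.5 CPM on average. Nearly all of this is in the rows H3P6 and H3P16, and reads of the gene and these copies may have been split. With both added to H3-3A, depleted cells had 108, 111.6 and 105.8 CPM, against 91.7, 93.6 and 94.4 CPM with the control shRNA. The same sum was 101.3, 103.7 and 106.6 CPM on overexpression, against 93.3, 86.4 and 81.3 CPM with the vector. Neither pair of groups overlapped. The lowest vector sum was that of replicate 3, which had the lowest levels of H3P6 and H3P16 of all libraries, at 8.19 and 7.06 CPM. The other vector libraries also lay under all overexpressing ones.

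H3-3B was the more abundant H3.3 gene in every library. It had 371, 400 and 346 CPM in depleted cells, against 340, 348 and 326 CPM with the control shRNA, and the groups overlapped (0.14 ± 0.06, adjusted p = 0.147). Without replicate 3 of the vector control, which enters the shared estimate of the spread, the adjusted p was 0.0232 at the same value. It had 432, 435 and 429 CPM on overexpression, against 471, 458 and 520 CPM with the vector, a difference of -0.16 ± 0.06 that did not pass (adjusted p = 0.189). The effects of overexpression and depletion differed by -0.30 ± 0.09 (adjusted p = 0.0429), a call kept in 10 of 19 alternatives. The H3-3A share of H3.3 reads was 16.7% ± 0.87 in depleted cells and 15.6% ± 0.51 with the control shRNA (SD, n = 3 each, exact permutation p = 0.2). It was 14.3% ± 0.49 on overexpression and 11.7% ± 0.37 with the vector, a difference of 2.56 percentage points with no overlap (exact permutation p = 0.1). In the control shRNA cells it was 3.91 percentage points above the vector control (exact permutation p = 0.1).

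**Figure D4:**
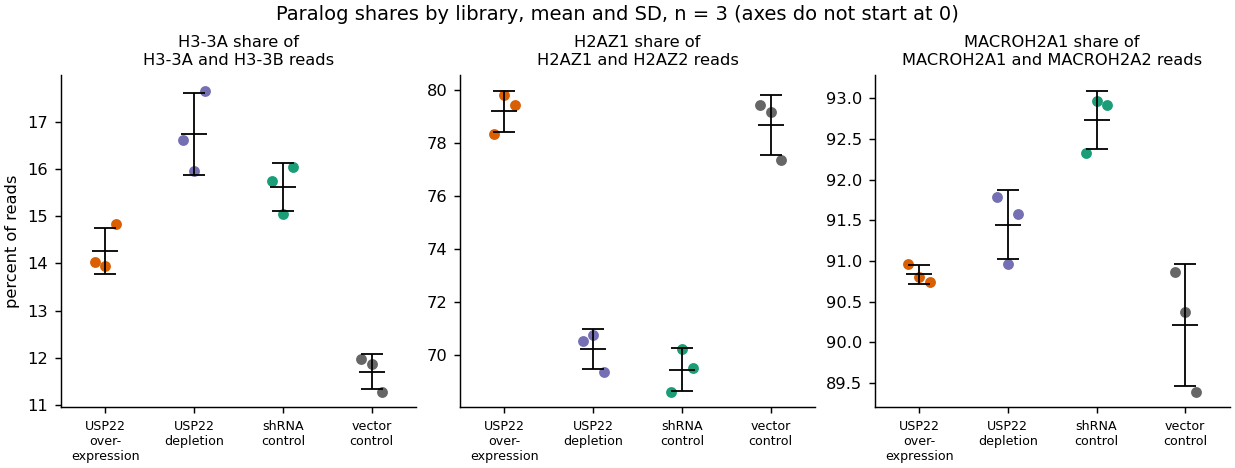
Share of one gene in the reads of a pair of related genes, in percent (vertical axes, which do not start at 0), in every library (points) with the group mean and SD (bars, n = 3). The H3-3A share is lowest in the vector control at 11.7%, the H2AZ1 share splits the 2 shRNA groups from the other 2, and the MACROH2A1 share is highest with the control shRNA at 92.7%.

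Genes for H3.3 deposition gave mixed signs. Of 7, 1 rose and 2 fell on depletion, where 19.8% of all tested genes passed. None passed on overexpression, where 1 had an unadjusted p under 0.05 (edgeR) and DESeq2 and limma called 0. DAXX, which with ATRX places H3.3 in heterochromatin, fell by 0.28 ± 0.07 on depletion (adjusted p = 0.00872), a call kept in 18 of 20 alternatives. The adjusted p was 0.0569 without control shRNA replicate 2 and 0.0511 without depletion replicate 3. ASF1A, a chaperone that hands H3.3 to the HIRA complex, rose by 0.33 ± 0.10 (adjusted p = 0.0219), a call kept in 16 of 20 alternatives. UBN2, a HIRA complex subunit, was the other gene that fell, with a log2 change of -0.32 ± 0.10 (adjusted p = 0.0297), kept in 14 of 20. HIRA itself was lower in the control shRNA cells than in the vector control, at -0.41 ± 0.08 (adjusted p = 0.000562), and ATRX was higher by 0.35 ± 0.08 (adjusted p = 0.00114).

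H1-10 encodes the linker histone H1.10, also called H1X. It had 48.9, 48.0 and 48.8 CPM in depleted cells, against 39.8, 43.4 and 45.8 CPM with the control shRNA. The groups did not overlap, but the difference of 0.18 ± 0.10 did not pass (adjusted p = 0.256). Without replicate 3 of the vector control it passed at the same value (adjusted p = 0.0134). On overexpression it had 50.7, 46.6 and 52.3 CPM, against 48.4, 52.4 and 68.0 CPM with the vector, with overlap (-0.17 ± 0.10, adjusted p = 0.374). The control shRNA cells were lower than the vector control, at -0.39 ± 0.10 (adjusted p = 0.00476), and at -0.23 without that library.

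Levels between members were compared per kilobase of exon (GENCODE 29 lengths, by ID), on which scale H2AZ1 led in every group. It had 255 CPM per kb in overexpressing cells, 149 in depleted cells, 137 with the control shRNA and 250 with the vector. H2AX and H3-3B came next in all 4 groups, and their libraries overlapped in depleted cells and in the vector control. H1-10 and H2AZ2 overlapped in all 4 groups. H2AJ was lowest at 8.38 CPM per kb on overexpression, 6.22 on depletion and 6.08 with the control shRNA, but was sixth with the vector at 28.7. The scale uses all annotated exons of a gene, which for MACROH2A1 sum to 17730 bases.

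Replication-dependent histone genes were mostly higher on depletion and mostly lower in the control shRNA cells than in the vector control. Of 66 entries in their list 31 were found in the table and 26 were tested. On depletion 21 rose and none fell, with a median of 0.70, and between the control shRNA and the vector 25 were lower, with a median of -1.24. Of all tested genes 9.40% rose on depletion and 21.3% were lower between these controls. On overexpression only H4C16 passed. Among the linker histones, H1-2 rose by 0.69 ± 0.08 (adjusted p = 1.84e-05) and H1-5 by 0.73 ± 0.11 (adjusted p = 0.000144) on depletion. H2BC26, an H2B gene, rose by 1.21 ± 0.11 (adjusted p = 1.59e-06). The reads of these genes may be split between near-identical copies. Summed over the list, CPM was 2771 ± 161 in depleted cells and 1797 ± 185 with the control shRNA, and 3801 ± 75.3 on overexpression and 4057 ± 710 with the vector (SD, n = 3 each). The 9 variants summed to 1482 ± 64.6 CPM in depleted cells and 1346 ± 37.7 CPM with the control shRNA, and to 1846 ± 45.8 CPM on overexpression and 2014 ± 28.9 CPM with the vector.

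Of 6 tested genes for other histone variants, 2 rose on depletion and none fell, where 19.8% of all tested genes passed. CENPA, the centromeric H3 variant, rose by 0.66 ± 0.09 on depletion (adjusted p = 6.86e-05) and was lower in the control shRNA cells than in the vector control, at -1.21 ± 0.09 (adjusted p = 2.55e-08). H1-6, a linker histone of the testis, was the other gene that rose, to 1.55, 2.02 and 1.20 CPM in depleted cells, against 1.00, 0.96 and 0.82 CPM with the control shRNA (0.79 ± 0.19, adjusted p = 0.00657).

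In a list of replication-coupled and general histone chaperones 8 of 11 rose on depletion, with none lower and a median of 0.30. Of all tested genes 9.40% rose on depletion. ASF1B rose by 0.64 ± 0.07 (adjusted p = 1.37e-05), SSRP1, a subunit of the FACT complex, by 0.40 ± 0.06 (adjusted p = 0.000231), and NASP, which holds H3 and H4 before deposition, by 0.31 ± 0.06 (adjusted p = 0.000988). Between the control shRNA and the vector 10 of 11 were lower, with a median of -0.74, where 21.3% of all tested genes were lower. HJURP, the chaperone of CENP-A, was lower there, at -1.21 ± 0.06 (adjusted p = 3.2e-10). It was also the 1 chaperone that passed on overexpression, at -0.25 ± 0.06 (adjusted p = 0.0229), a call kept in 10 of 20 alternatives.

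Cell cycle genes differed on depletion and between the controls, and few passed on overexpression. Of 19 tested S phase markers 18 rose on depletion and all 19 were lower with the control shRNA than with the vector, and of 20 G2 and mitosis markers 19 rose and all 20 were lower. Of all tested genes 9.40% rose on depletion and 21.3% were lower between these controls. On overexpression 1 of the 19 S phase markers was lower and 0 of the 20 G2 and mitosis markers passed (edgeR). Of all tested genes 4.11% passed there. The S phase markers summed to 2017 ± 98.8 CPM in depleted cells and 1433 ± 42.7 CPM with the control shRNA, and to 2584 ± 29.1 CPM on overexpression and 2763 ± 170 CPM with the vector. G2 and mitosis markers summed to 2254 ± 92.7 CPM in depleted cells and 1487 ± 70.3 CPM with the control shRNA, and to 2867 ± 20.5 CPM on overexpression and 3002 ± 106 CPM with the vector. Their part in the member values was not tested. In bulk RNA, fewer cells in a phase and less RNA per cell cannot be told apart.

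**Figure D5:**
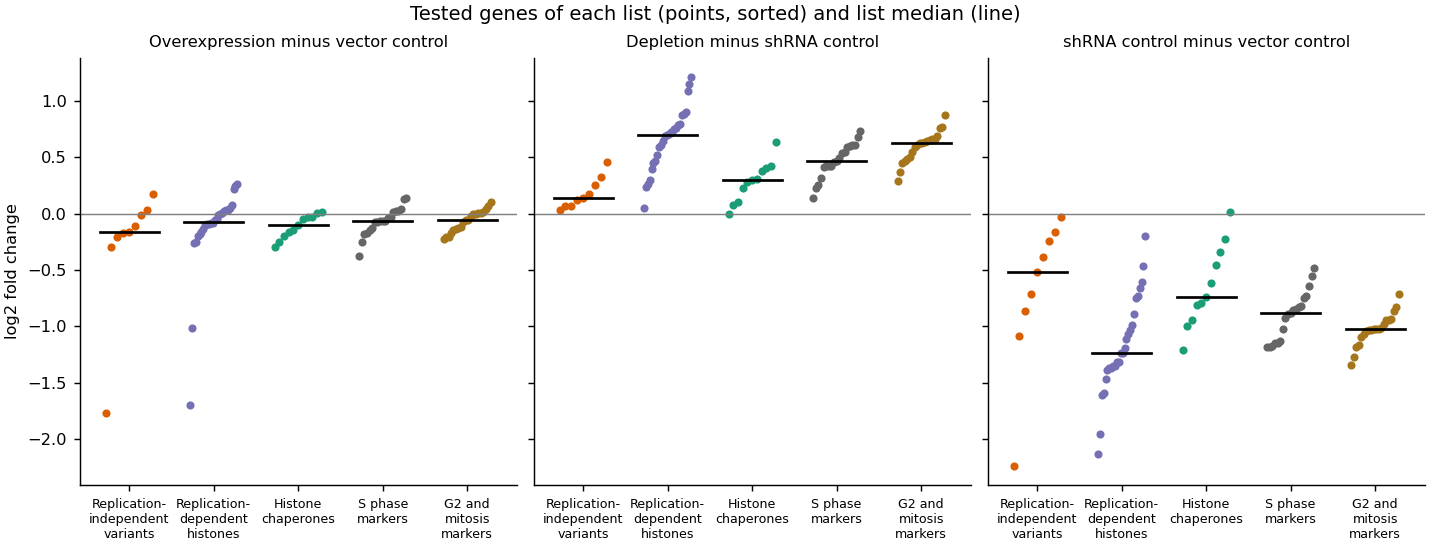
Fitted log2 fold change (vertical axis) of each tested gene (points, sorted within a list) and the list's median (line), for the 9 replication-independent variants, replication-dependent histones, histone chaperones and cell cycle markers in 3 comparisons. On depletion the variants have a median of 0.14 and the replication-dependent histones 0.70, and on overexpression H2AJ and H4C16 lie under the rest of their lists.

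Across the 12 libraries, H3-3A differed from the other 8 members in its pattern. Pearson's r of log2 CPM among those 8 ran from 0.321 for H2AZ2 with H1-10 to 0.956 for MACROH2A2 with H3-3B, while H3-3A had r between -0.358 and 0.201 with the other members. These are descriptions over 4 groups of 3 libraries, so they largely restate the group means. Among 10979 genes with a mean of at least 5 CPM, those most like H2AJ were MTRFR (r = 0.986), THBS1 (0.982) and EWSR1 (0.981). CHCHD10, APOBEC3B and HAUS8 were most like H2AX (0.986 to 0.987), RAD23B, PPA1 and WARS2 most like H2AZ1 (0.993 to 0.995), and CPSF2, METAP2 and COIL most like H2AZ2 (0.976 to 0.987). PHF5A and XBP1 were among those most like MACROH2A1 (0.985 and 0.984), and ATF4, EXOSC2 and DDX39A most like MACROH2A2 (0.988 to 0.991). For H3-3B they were PGK1 (0.999), SLC25A3 and TIMM8B (0.992 each), and for H1-10 SLC39A3, PTMS and CARM1 (0.96 to 0.968). For H3-3A the values were lower, at 0.955 for RIN2, 0.939 for INHBB and 0.931 for KBTBD11.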

How the data were processed

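Total RNA of 12 LNCaP libraries was sequenced after a stranded total RNA preparation, per the labels' protocols. The authors deposited raw counts, 1 table with 63677 Ensembl IDs. The submitters' processing notes name the build hg19, STAR 2.5.2a, featureCounts 1.5.0-p3 and DESeq2 1.14.1. Which annotation was counted, with what strand setting and with what rule for reads of several matches is not given in the sources used here. By GENCODE 29, 6 of the 9 members overlap another gene, H1-10, H2AZ1, H3-3A, MACROH2A1 and MACROH2A2 on the opposite strand and H3-3B on both, so their reads may hold some of that gene's. Symbols were found by ID for 62.3% of IDs.

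Counts were fitted in R 4.3.3 with edgeR 4.0.16 (filterByExpr by group, TMM, glmQLFit over all 12 libraries with 8 residual degrees of freedom, glmQLFTest) and adjusted by Benjamini-Hochberg over the 26076 tested genes of a comparison, with a threshold of 0.05. Scripts were tested on simulated data. Alternatives were DESeq2 1.42.0, limma 3.58.1 (voom), another scaling, 2 filters, fewer libraries, a replicate term, removal of the 20 most abundant genes and leaving out each library. Fold changes are on the log2 scale, with the vector control or, for depletion, the control shRNA below the line, and CPM uses TMM-scaled library sizes. Likeness used log2 CPM with a prior count of 2. The members and lists were chosen with earlier results of these data known. Named genes were all members, USP22, up to 4 called genes of each list per comparison with the smallest p and the 3 genes most like each member. Of the genes this rule names, 2 are not reported here. The neighbours of members, the H3.3 pseudogene rows and the promoter motifs were chosen after values were seen. Promoters are RefSeq's, matched by symbol for all 9 members. Replicate numbers gave no sign of pairing, since deviations of same-numbered libraries from their group means correlated at -0.071 to 0.083 over 12 pairs. Libraries of unlike number were not compared, so this check cannot exclude pairing.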

Additional observations from a re-analysis of the deposited data

Results flagged for a closer look

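The response to USP22 overexpression and the response to USP22 depletion differed for 4 members by the test of that difference in the fit over all 12 libraries. Of all tested genes 10.9% passed that test, 4.91% positive and 5.98% negative. The overexpression effect minus the depletion effect was -1.81 on the log2 scale for H2AJ, -0.76 for H2AX, -0.54 for MACROH2A2 and -0.30 for H3-3B. The call for H3-3B (adjusted p = 0.0429, edgeR) was kept in 10 of 19 alternatives. For H2AJ the depletion effect was 0.04, so the difference is nearly all from overexpression against the vector control. For H2AX, MACROH2A2 and H3-3B the overexpression effects were negative and the depletion effects positive, but the overexpression effects did not pass on their own. The depletion effect of H3-3B did not pass either (adjusted p = 0.147, edgeR).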

How the results depend on the processing

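Of the values of single members, all alternatives kept the direction except near 0. H2AJ on depletion was -0.022 without depletion replicate 2, and at most 0.117 with another left out. H2AZ1 on overexpression was -0.059 without vector control replicate 3 and -0.015 without overexpression replicate 2, and at most 0.081. H2AZ2 on overexpression was 0.004 with no filter, 0.014 with a filter of 1 CPM in 3 libraries, 0.003 with only the compared libraries, 0.006 without vector control replicate 1, and 0.004 to 0.005 without a library of either shRNA group, and at its lowest -0.051 without vector control replicate 3. H3-3A between controls was 0.003 with the stricter filter. The H2AZ1 share on overexpression was -0.12 without vector control replicate 3 and ranged to 0.97.

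Genes called on overexpression numbered 1072, against 2062 with no filter, 1781 with DESeq2, 327 with only the compared libraries, and 501 to 1842 when 1 library was left out (1842 without vector control replicate 3, and 539, 501 and 630 without overexpression replicates 1, 2 and 3). On depletion there were 5172, against 8115 with only the compared libraries and 3523 to 8359 with 1 left out (8359 without vector control replicate 3). The difference of effects gave 2840, and 1909 to 5320 with 1 left out (5320 without vector control replicate 3). Members called on overexpression were 1, and 2 with no filter, the stricter filter or DESeq2 and 1 to 2 with 1 library left out (2 without vector control replicate 3). The second was H2AX with no filter (adjusted p = 0.00433) and H3-3A with the stricter filter (0.0135), DESeq2 (0.0178) and without that library (0.00955). Members called on depletion were 3, and 5 with only the compared libraries and 3 to 5 with 1 left out (5 without vector control replicate 3), where H3-3B and H1-10 were added. MACROH2A1 in depleted cells against the vector lost its call in 4 of 20 alternatives. The cause was not tested. A replicate block left 1 member called on overexpression, 3 on depletion and 8 between controls, and in the difference of effects 3, since H3-3B had an adjusted p of 0.0513 (edgeR). Genes called in all with that block numbered 1098, 5272, 11308 and 2959, in the same order. No paired reading was made, because the replicate numbers gave no sign of pairing, although the check cannot exclude it.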
